A study of Mus musculus with 6 samples.

Results

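miR-148a was followed through its 2 arms, mmu-miR-148a-3p and mmu-miR-148a-5p (below miR-148a-3p and miR-148a-5p), which were the rows whose names begin with mmu-miR-148a- among the 49 mature miRNAs listed for each library. Small RNA had been sequenced from C2C12 cells (an established mouse line of myoblasts, the precursors of muscle fibres) in 3 wild-type (WT) libraries and 3 libraries of an MSTN-knockout (MSTN-KO) line. In the MSTN-KO line the gene of myostatin, a secreted inhibitor of muscle growth, had been cut in exon 3 with CRISPR/Cas9. The cells of both groups were grown in medium with fetal bovine serum, and the labels give no treatment or age.

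The article calls the knockout cells C11, whereas the strain label reads C11 in all 6 libraries, WT included. The myostatin transcript is not among the listed miRNAs, so which libraries are the knockout could not be checked from these values. The direction of each difference below rests on the genotype in the sample labels, and if the labels of the groups were exchanged, each fall would be a rise of the same size. The knockout group is a single line, and nothing says whether its replicates were separate cultures, so p-values measure the spread between libraries only. The muscle-specific miR-206-3p ranked first in 6 of 6 libraries, between 6143 and 31551 reads per 1000000 library reads (RPM). Library totals lay between 5502214 and 11823489 reads. The listed miRNAs held 2.72%, 3.47% and 2.11% of the reads in WT replicates 1, 2 and 3. In MSTN-KO replicates 1, 2 and 3 they held 0.773%, 1.26% and 1.03%.

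MicroRNAs are cut from a hairpin precursor, and either strand of the resulting duplex can be loaded into an Argonaute protein, where its seed pairs with messenger RNAs and represses them. Usually one arm is kept and the other is degraded. miR-148a belongs to the family of miR-148 and miR-152, whose known targets include the DNA methyltransferase Dnmt1. In myoblasts miR-148a is known to favour differentiation into muscle fibres, with the kinase Rock1 as a described target.

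The Mir148a hairpin lies on the minus strand at chr6:51269812-51269910 (GRCm38.p6, RefSeq), and no other GENCODE M21 gene overlaps it on either strand. The nearest long noncoding RNA gene, Gm32479, lies 13622 bp away on the same strand, and the nearest protein-coding gene, Nfe2l3, lies 162760 bp away. The hairpin of 99 bases is shown because both measured species come from it, with the 5p arm (bases 23 to 44) and the 3p arm (bases 61 to 82) in capitals and 16 bases between them.
Mir148a hairpin: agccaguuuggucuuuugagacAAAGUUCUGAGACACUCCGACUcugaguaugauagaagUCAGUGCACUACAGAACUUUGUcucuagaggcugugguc

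The arms carry different seeds (bases 2 to 8, in capitals below), so that they would pair with different messenger RNAs. The other members of the family are given beside miR-148a-3p because they share its seed and much of its length. All sequences are from RefSeq, which had an entry under the same name for 32 of the 49 listed miRNAs.
miR-148a-3p: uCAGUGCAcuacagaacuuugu
miR-148a-5p: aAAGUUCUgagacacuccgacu
miR-148b-3p: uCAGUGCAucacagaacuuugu
miR-152-3p: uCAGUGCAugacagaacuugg

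Of these 3 miRNAs with the seed of miR-148a-3p, miR-148a-3p alone was among the 49. Counting from the 5′ end, miR-148b-3p differs from it by 2 substitutions, C9U and U10C. miR-152-3p differs over its 21 bases by 3, C9U, U10G and U20G. The mismatches allowed when reads were assigned are not given in the sources used here, so reads of these miRNAs could have been counted as miR-148a-3p. Within the hairpin, the longest unbroken complement between the arms has 9 bases, CAGAACUUU from base 12 of the 3p arm, which pairs with the 5p arm from its first base and thereby covers the 5p seed.

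By the labels, both arms of miR-148a were lower in MSTN-KO than in WT libraries. miR-148a-3p was an abundant listed miRNA in WT cells and fell 15.4-fold in the mean, while miR-148a-5p was scarce in WT cells and was close to the limit of detection in MSTN-KO cells. The 3p arm stood at 333, 455 and 416 RPM in WT replicates 1, 2 and 3, and at 23.8, 33.4 and 21.0 RPM in MSTN-KO replicates 1, 2 and 3. The groups were far apart, since the lowest WT value was 9.98 times the highest MSTN-KO value. Expressed as reads, these values were 2163, 3123 and 4917 in the WT libraries and 131, 319 and 183 in the MSTN-KO libraries.

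The 5p arm stood at 1.70, 2.48 and 2.37 RPM in WT replicates 1, 2 and 3, that is, at 11, 17 and 28 reads. In MSTN-KO replicates 1, 2 and 3 it stood at 0.363, 0.105 and 0.115 RPM, that is, at 2, 1 and 1 reads. Here too the groups stood apart, but each MSTN-KO library was under 3 reads, which correspond to 0.545, 0.314 and 0.344 RPM there. The plot of levels by library shows both arms with their counting intervals.

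**Figure D1:**
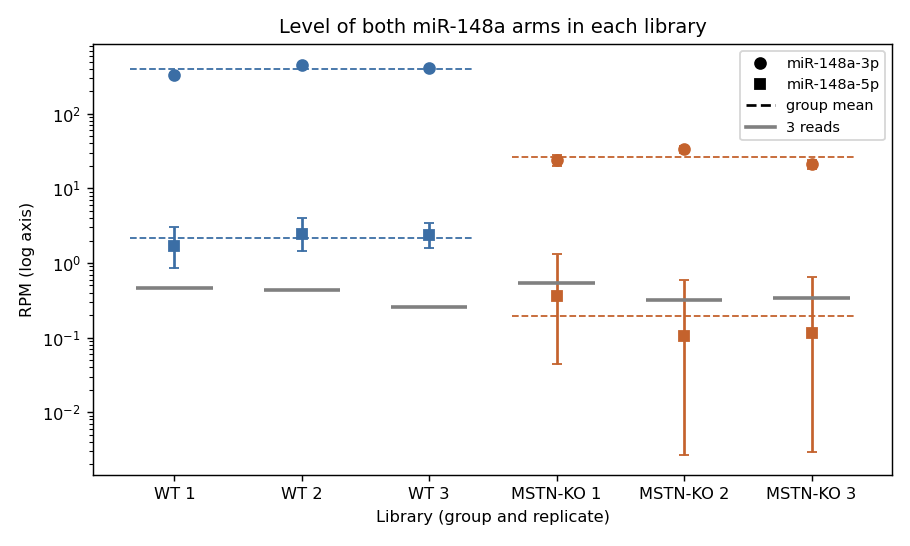
RPM (log axis) of miR-148a-3p (circles) and miR-148a-5p (squares) in each WT (blue) and MSTN-KO (orange) library, with exact 95% Poisson intervals, group means as dashed lines and the level of 3 reads as grey bars. The 3p arm drops from between 333 and 455 RPM to between 21.0 and 33.4 RPM, and the 5p arm drops from 1.70 RPM or more to below the 3-read level.

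The replicates of the 3p arm differed by more than counting error, and those of the 5p arm did not. In the WT group the coefficient of variation of miR-148a-3p was 15.4%, against 1.78% from counting alone, and in the MSTN-KO group it was 24.9% against 7.08%. For miR-148a-5p it was 19.4% against 24.0% in the WT group and 75.4% against 89.2% in the MSTN-KO group. The spread of the 5p values was thus no larger than that of a count of so few reads.

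To compare the groups, each listed miRNA was fitted on log2(RPM + 1) with limma. miR-148a-3p averaged 401 ± 62.0 RPM over the WT libraries and 26.1 ± 6.51 RPM over the MSTN-KO libraries (SD, n = 3 each). Its log2 fold change was -3.91 ± 0.23 (SE, 95% interval -4.44 to -3.38, limma adjusted p = 1.03e-06). miR-148a-5p fell from 2.18 ± 0.423 to 0.194 ± 0.147 RPM (SD, n = 3 each), with a log2 fold change of -1.41 ± 0.20 (SE, 95% interval -1.87 to -0.95, limma adjusted p = 0.000218). The MSTN-KO value of the 5p arm rests on 4 reads in all, so this fitted change depends on the added 1 RPM.

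The study's methods set cut-offs at a log2 fold change above 1 or below -1 with a p-value under 0.05, which was applied here to the unadjusted p. On the deposited RPM both arms passed them as lower, as did 28 of the 49 listed miRNAs (57.1%). Beside these 28, 14 listed miRNAs passed as higher, which makes 42 (85.7%) in either direction. With 3 rescalings of the libraries on the listed values, 9 to 11 lower and 14 higher ones were left. The rescalings rest on listed miRNAs that all separated the groups on the deposited RPM. Which count is nearer the state of the cells was therefore not tested. At an adjusted p-value under 0.05, 35 (71.4%) were lower by the labels, and the same share (71.4%) was lower with no overlap between groups. All 49 listed miRNAs (100%) passed the adjusted threshold in one direction or the other, so passing says nothing particular about miR-148a. A list in which each miRNA separates the groups is no unselected sample of the miRNAs in these cells, and the p-values and their adjustment hold for this list alone.

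By the sample labels, miR-148a-3p had the second largest fall of the 49, after miR-1a-3p (-4.96, as a log2 fold change of RPM + 1). The next were miR-130b-5p (-3.76), then miR-335-3p (-3.23), then miR-301b-5p (-3.21). miR-148a-5p was in place 14 of the falls. These places moved with the pseudocount, and with 0.1 RPM in its place the 3p arm had the sixth largest fall and the 5p arm stood in place 10. The median log2 fold change of all 49 was -1.07, and miR-148a-3p differed from it by -2.83.

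**Figure D2:**
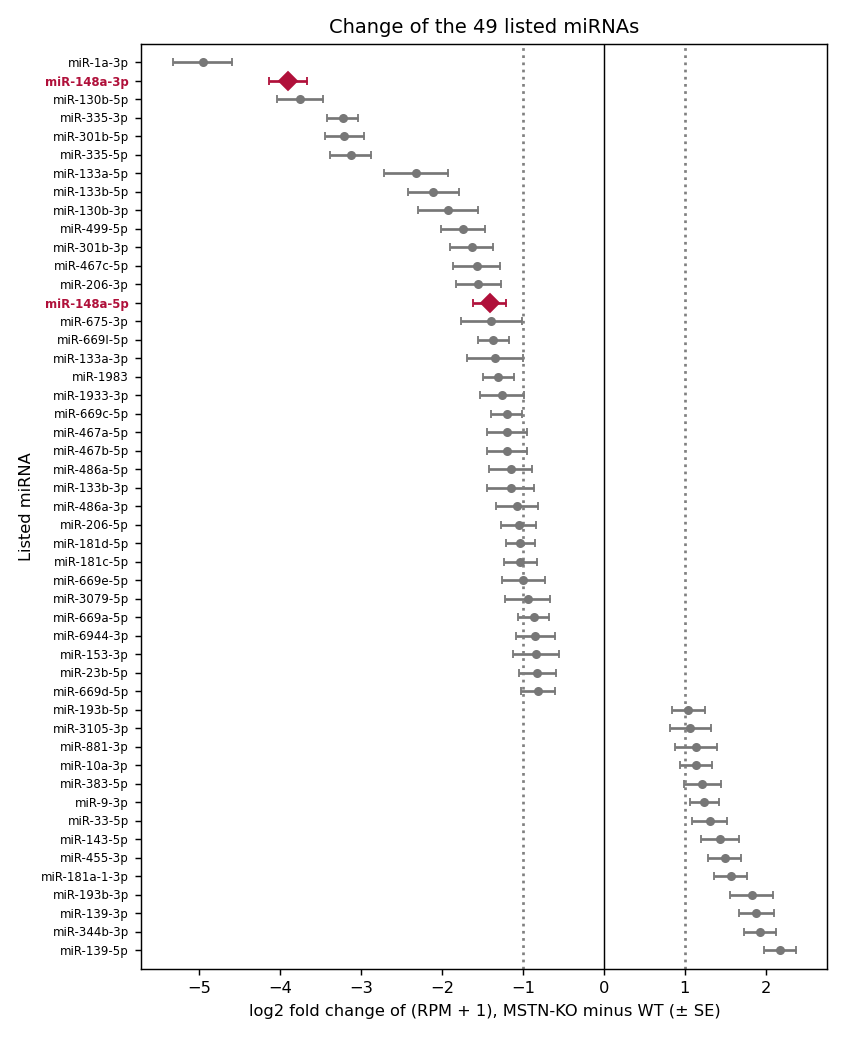
Log2 fold change of (RPM + 1), MSTN-KO minus WT, with SE, for the 49 listed miRNAs in order, the 2 miR-148a arms as red diamonds and dotted lines at -1 and 1. miR-148a-3p at -3.91 is second from the top, and miR-148a-5p at -1.41 lies in the middle of the falls.

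miR-148a-3p stayed lower under each of the 3 rescalings. The rescalings moved the median log2 fold change up by 0.99 (median of ratios), 1.23 (listed total) and 0.85 (quantile normalization). miR-148a-3p then changed by -2.79, -2.50 and -3.54. Its differences from the respective medians were -2.71, -2.66 and -3.32. Median of ratios and the listed total divide each library by a single factor. They could therefore move this difference little beyond the effect of the added 1 RPM, and its size there is no test of the fall. miR-148a-5p changed by -0.92, -0.87 and -0.59, each short of the fold cut-off of -1. Its limma adjusted p of 0.0721 under quantile normalization did not pass either, whereas over its 14 alternatives the adjusted p ran from 0.000218 to that value.

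Whether the arms fell by the same amount was then examined, since both are cut from the same precursor. With the reads of each group summed and divided by its summed library totals, WT exceeded MSTN-KO by 15.2-fold for the 3p arm (95% exact interval 14.0 to 16.5, from 10203 and 633 reads). For the 5p arm the ratio was 13.2 (4.88 to 50.2, from 56 and 4 reads). The interval of the 5p arm contains that of the 3p arm whole. These intervals cover counting error only, since the reads carry no molecular identifiers and may be copies of the same molecule.

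The arm ratio within a library does not depend on the library total. WT replicates 1, 2 and 3 held 197, 184 and 176 reads of the 3p arm for each read of the 5p arm. MSTN-KO replicates 1, 2 and 3 held 65.5, 319 and 183. The WT ratios were close together and the MSTN-KO ratios lay on both sides of them, each of the latter resting on 1 or 2 reads of the 5p arm.

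As a share of the reads of both arms, the 5p arm made up 0.506% (exact Clopper-Pearson 95% interval 0.253 to 0.904), 0.541% (0.316 to 0.865) and 0.566% (0.377 to 0.817) in WT replicates 1, 2 and 3. In MSTN-KO replicates 1, 2 and 3 it made up 1.50% (0.183 to 5.33), 0.312% (0.00791 to 1.73) and 0.543% (0.0138 to 2.99). The mean share was 0.538% ± 0.0303 over the WT libraries and 0.787% ± 0.632 over the MSTN-KO libraries (SD, n = 3 each). The difference of 0.249 percentage points was smaller than the spread between the MSTN-KO libraries (exact two-sided permutation test, p = 0.8, where 0.1 is the smallest p that 3 against 3 libraries allow). Without MSTN-KO replicate 1 the difference was -0.11 percentage points.

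With reads summed, the 5p share was 0.546% (0.413 to 0.708) in the WT group and 0.628% (0.171 to 1.60) in the MSTN-KO group. At the WT ratio of the arms, the 633 reads of the 3p arm in the MSTN-KO libraries would go with 3.47 reads of the 5p arm, and 4 were found. A change in the use of the arms was not detectable at this depth, and shares in the MSTN-KO group from 0.171% to 1.60% remain possible by counting alone.

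**Figure D3:**
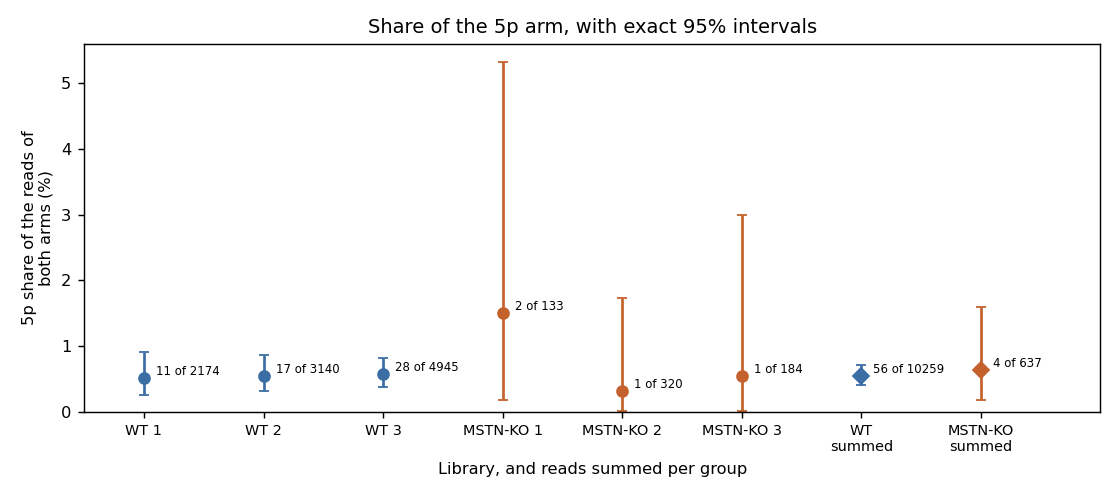
Share of the 5p arm in the reads of both miR-148a arms (%) for each library and for the reads summed per group (diamonds), with exact 95% intervals and the 5p reads of the total beside each point. The WT libraries sit between 0.506% and 0.566%, and the intervals of the MSTN-KO libraries, from 1 or 2 reads, span all of them.

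On the log2(RPM + 1) scale the arms seemed to differ in their change. The difference between 3p and 5p went from 6.98 ± 0.0473 in WT cells to 4.48 ± 0.418 in MSTN-KO cells (SD, n = 3 each; p = 0.1 by exact permutation, the smallest allowed). That change of -2.50 shrank to -0.91 with a pseudocount of 0.1 RPM and to -0.24 with none (p = 0.8, exact permutation). The added 1 RPM is larger than each MSTN-KO value of the 5p arm and so sets most of the apparent difference.

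By level, miR-148a-3p ranked 3 of 49 in each WT library, whereas it ranked 13, 12 and 15 in MSTN-KO replicates 1, 2 and 3. In WT cells it stood below miR-181d-5p (765 ± 21.1 RPM, SD, n = 3), whose values did not overlap with it, and above miR-486a-5p (300.0 ± 94.6 RPM), whose values did. In MSTN-KO cells its neighbours by mean were miR-10a-3p (29.3 ± 3.95 RPM) and miR-344b-3p (24.6 ± 3.35 RPM), and its own values overlapped with those of both. miR-148a-5p ranked 44, 42 and 42 in WT replicates 1, 2 and 3 and 46, 48 and 44 in the MSTN-KO replicates. Its neighbours by mean in either group, miR-301b-3p, miR-3079-5p and miR-669d-5p, overlapped with it.

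The loss of rank of miR-148a-3p, from place 3 to place 13 by group mean, came about as 10 listed miRNAs overtook it. Of these, 6 were higher in the MSTN-KO group, such as miR-139-5p (89.5 to 405 RPM) and miR-143-5p (72.7 to 195 RPM). The other 4 were lower but by less, among them miR-486a-5p (300.0 to 132 RPM) and miR-133b-3p (166 to 75.3 RPM). Of all listed RPM, miR-148a-3p held 1.50% ± 0.411 in WT cells and 0.259% ± 0.0525 in MSTN-KO cells (SD, n = 3 each; p = 0.1 by exact permutation, the smallest allowed). With miR-206-3p left out of the total these shares were 14.1% ± 1.12 and 1.50% ± 0.329 (exact permutation p = 0.1).

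**Figure D4:**
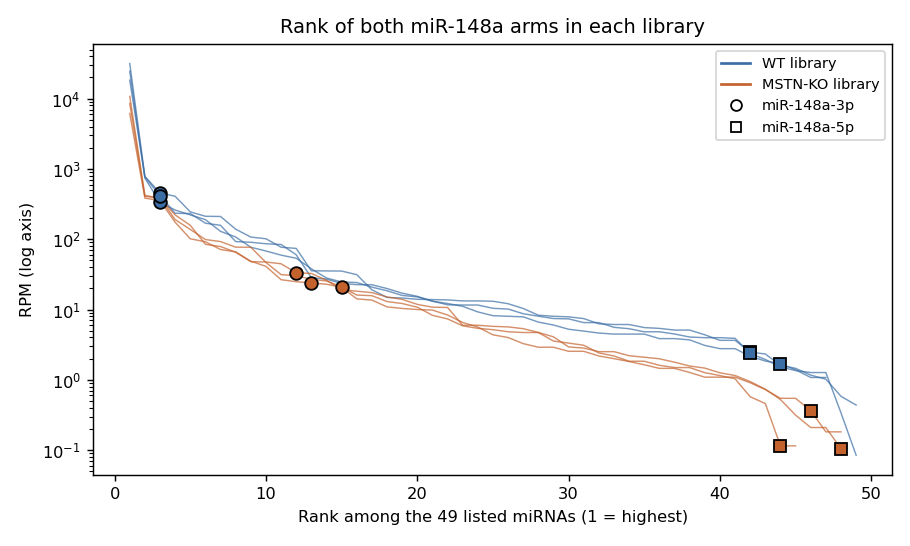
RPM (log axis) against rank among the 49 listed miRNAs for each WT (blue line) and MSTN-KO (orange line) library, values of 0 left out, with miR-148a-3p as circles and miR-148a-5p as squares. The 3p arm sits at rank 3 in the WT libraries and at ranks 12 to 15 in the MSTN-KO libraries, while the 5p arm stays among the lowest.

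The arm bias of miR-148a was compared with that of the other hairpins listed with both arms. There were 10 such hairpins, and miR-148a had the second smallest minor arm in the WT group (0.538%), after miR-206 (0.0494% ± 0.00738, SD, n = 3) and before miR-193b (2.23% ± 2.93). On the deposited RPM both arms were lower in 8 of the 10 hairpins and higher in 2, beside 71.4% lower among all listed miRNAs. In none did the arms have opposite signs. Scaled to the listed total, the arms of 3 hairpins (miR-133a, miR-133b and miR-206) had opposite signs, and under median of ratios those of 1 (miR-486a) did. In these settings neither arm of miR-206 or miR-486a passed at an adjusted p under 0.05, nor did the major arms of miR-133a and miR-133b. Quantile normalization gave no opposite signs, with 1 arm at 0. As log2 ratios of the group means without a pseudocount, the miR-148a arms changed by -3.94 (3p) and -3.49 (5p). The gap between major and minor arm was widest for miR-133a, at -1.35 and -4.95, and that of miR-139 was among the narrowest, at 2.18 and 2.14. For the minor arm of miR-133a, the MSTN-KO mean came from 5 reads, all in replicate 2. The minor arm of miR-148a held 4 reads in the MSTN-KO group, fewer than those of all these hairpins but miR-301b (3 reads).

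**Figure D5:**
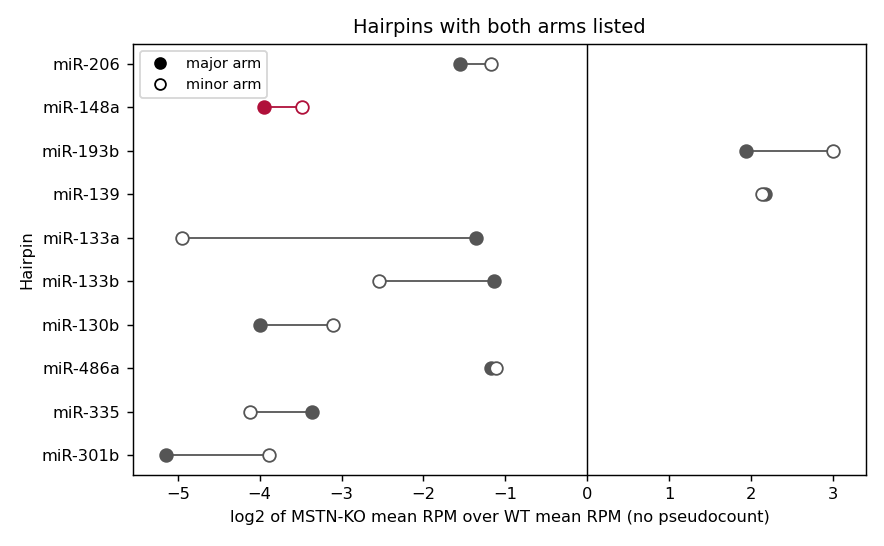
Log2 ratio of the MSTN-KO mean RPM to the WT mean RPM, without a pseudocount, for the major (filled) and minor (open) arm of the 10 hairpins with both arms listed, ordered by the share of the minor arm in WT cells. The arms of miR-148a (red) lie at -3.94 and -3.49, on the same side of 0. On the deposited RPM plotted here this was so in each hairpin, but not for miR-133a, miR-133b and miR-206 when scaled to the listed total or for miR-486a under median of ratios.

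Other miRNAs of muscle differentiation were set beside miR-148a. Of a list of 17 miRNAs known from myogenesis, 7 were among the 49, and all 7 were lower in the MSTN-KO group at a limma adjusted p under 0.05, with none higher. Their median log2 fold change was -1.39, against -1.07 over all 49, and they ranged from -4.96 for miR-1a-3p, which promotes myoblast differentiation, to -1.15 for miR-133b-3p, a partner of miR-206 in the same transcript. miR-148a-3p lay within that range. These counts depend on the scaling. Under median of ratios 2 of the 7 passed as lower, beside 12 of all listed miRNAs. Under the listed total 2 passed, beside 10 of all, and miR-133a-3p, miR-133b-3p and miR-486a-5p lay above 0. Under quantile normalization 1 passed, miR-1a-3p, beside 12 of all. Quantile normalization gave miR-206-3p, first in each library, the same value in both groups, so it could not pass there. The listed total was mostly miR-206-3p (24649 of 27216 RPM in WT replicate 1), so scaling to that total left it nearly unchanged (-0.12). The 7 myogenic miRNAs are members of a list in which 71.4% were lower on the deposited RPM. The 17 were chosen with results of these data known.

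Profiles over the 6 libraries were most like that of miR-148a-3p for miR-181d-5p (Pearson r = 0.994 on log2(RPM + 1)), miR-335-3p (0.993), miR-1a-3p (0.991), miR-301b-5p (0.984) and miR-130b-5p (0.982). miR-148a-5p came in place 7 (0.977). The profile of miR-148a-5p was most like those of miR-301b-5p (0.981), miR-148a-3p (0.977) and miR-301b-3p (0.973). These values mostly restate that each of these miRNAs was lower in the MSTN-KO group, because the median r to miR-148a-3p of the 34 other lower miRNAs was 0.935 and the points share their libraries and totals. A high r also does not mean a like size of change, as miR-181d-5p changed by only -1.03.

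One listed miRNA with a RefSeq sequence shares the 6 letters AGUGCA with miR-148a-3p within its first 8 bases, namely miR-130b-3p, in which they begin 1 base earlier (at base 2, against base 3). They are shown in capitals to let the offset of the seeds be seen.
miR-148a-3p: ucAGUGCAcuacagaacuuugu
miR-130b-3p: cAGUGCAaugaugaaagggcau
Of 1679 mature mouse miRNA names in the table, 12 (0.715%) hold these letters there, read on the miRNA strand only. The 17 listed miRNAs without a RefSeq match, miR-301b-3p among them, were not searched, so other listed miRNAs may hold the letters too. The article's forward primer for miR-301b-3p does hold them, with T for U. miR-130b-3p was lower in the MSTN-KO group as well, at 5.30 against 0.617 RPM in the group means (log2 fold change -1.93 ± 0.37, SE, limma adjusted p = 0.000857), as were 71.4% of the listed miRNAs. Its limma adjusted p was 0.0178 under median of ratios, and it did not pass under the listed total (0.0607) or quantile normalization (0.0572). The shared letters are a description and not a shared target.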

How the data were processed

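The authors deposited RPM, 1 value for each of the same 49 miRNAs in each of 6 libraries (3 WT, 3 MSTN-KO). The article calls its expression values FPKM, but all values above 0 were whole multiples (within 0.01) of 1 step per library, with no length in the scaling. That step was taken as 1 read and its inverse as the library total. The submitters' processing notes name Bowtie 0.12.2 and mm8. The counting tool and the miRNA catalogue are not given in the sources used here. Only these 49 miRNAs, a part of the library, were analysed here. Among them, miR-467a-5p and miR-467b-5p held the same reads in each library, yet each is counted as a row of its own.

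Groups and replicate numbers came from the sample titles. log2(RPM + 1) was fitted over all 49 miRNAs (each reached 1 RPM in at least 1 library) with limma 3.58.1 in R 4.3.3 (lmFit and eBayes, two-sided, no covariate), with Benjamini-Hochberg adjustment. The fit was tested on simulated data in which most features were unchanged, unlike this list, so that test does not cover the present setting. For a single value per library, exact permutation tests were used (two-sided, scipy 1.17.1). No count model was fitted to the 49 values per library. No pair of libraries within a group was alike within sampling noise (lowest chi-square 456, 47 degrees of freedom).

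The members and lists were chosen with earlier results of these data known. Named beside both arms were the 5 and 3 most similar profiles of the 3p and 5p arm, neighbours by level, hairpins with both arms listed, the 5 largest falls, and listed members of the seed family and of the myogenic list. miRNAs that overtook the 3p arm and those sharing AGUGCA were chosen after their values were seen. Alternatives were other pseudocounts, filters and scalings, a variance trend, a replicate block and leaving out each library. After median-of-ratios scaling or quantile normalization miR-669d-5p reached 1 RPM in no library, so those fits left it out.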

Additional observations from a re-analysis of the deposited data

How the results depend on the processing

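miR-148a-3p stayed lower at a limma adjusted p under 0.05 in each of its 15 alternatives, with log2 fold changes from -4.09 to -2.50. miR-148a-5p stayed lower in its 14 alternatives and passed the adjusted threshold in 13 of them, the exception being quantile normalization (-0.59). Its log2 fold change did not reach the cut-off of -1 under any rescaling or with a pseudocount of 10 RPM (-0.26). The filter at a mean of 10 RPM left miR-148a-5p out, and no filter changed nothing because all 49 passed. Leaving out each library in turn gave -4.09 to -3.77 for the 3p arm, -1.53 to -1.34 for the 5p arm, -0.11 to 0.486 percentage points for the difference in 5p share, -2.74 to -2.35 for the difference between the arms' changes and -1.38 to -1.01 percentage points for the share of the listed RPM. The difference in 5p share turned negative without MSTN-KO replicate 1, the library with 2 reads of the 5p arm. In place of 28 lower and 14 higher listed miRNAs past the fold cut-off, a pseudocount of 10 RPM gave 12 and 5, a mean of at least 10 RPM gave 13 and 8, and the rescalings gave 11 (median of ratios), 10 (listed total) and 9 (quantile) lower ones. At the adjusted threshold, 35 lower and 14 higher became 14 and 8 with the mean filter, and 12, 10 and 12 lower under the rescalings. In the order of falls miR-148a-3p moved from 2 to 6 with a pseudocount of 0.1 RPM, and miR-148a-5p moved from 14 to 10 with 0.1 RPM and to 32 with 10 RPM. The cause was not tested.

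The titles give both groups the replicate numbers 1 to 3, but same-numbered libraries share only a number. Their deviations from the group means correlated by 0.00468 to 0.223. With the replicate block the changes were -3.91 (limma adjusted p = 7.84e-05) and -1.41 (limma adjusted p = 0.00171), and no call on either arm changed. Depth limits the 5p arm most, at 1 or 2 reads in each MSTN-KO library.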
